A study of Mus musculus with 3 samples.

Results

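The cells described here are plasmacytoid dendritic cells (pDCs) of the mouse liver, picked from droplet single-cell RNA profiles by one marker gene. A cell was a member if it held at least 3 unique molecular identifiers (UMIs, each standing for 1 captured transcript) of Siglech and none of Cd79a, Cd3e, Clec4f and Vsig4, the marker genes of B cells, T cells and Kupffer cells. Cells were first filtered: a cell needed 500 UMIs and 250 genes, and no more than 25% of its UMIs could be mitochondrial. The rule found 117 members among 20950 filtered cells. Of these, 3 of 7552 came from the library labelled dHep_IR, 0 of 6780 from FL_IR and 114 of 6618 from FL_control. The library dHep_IR was labelled as liver of a mouse whose hepatocytes lack Gsdmd, the gene of the pore-forming protein gasdermin D, after irradiation, and its genotype tag names a Gsdmd knockout. The library FL_IR was labelled as liver of a mouse with the floxed Gsdmd allele (Gsdmd FL/FL), tagged WT, after irradiation. The library FL_control was labelled as Gsdmd FL/FL, tagged WT, without irradiation. The irradiated mice received 30 Gy, and their livers were taken after 7 days. The body part exposed, the driver of the deletion, the exons removed, the age of the mice and the number of animals in a library are not given in the sources used here.

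pDCs are bone marrow-derived dendritic cells that circulate in blood and settle in lymphoid organs and in tissues such as the liver. They sense viral RNA and DNA in endosomes through Toll-like receptors and, when triggered, secrete type I interferon in large amounts. Their identity depends on the transcription factor TCF4 (E2-2), with RUNX2, SPIB and IRF8 acting beside it. In the mouse they are marked by SiglecH, an inhibitory lectin that signals through the adaptor DAP12, and by BST2 (tetherin), an interferon-induced membrane protein.

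With 1 library per group there was no replicate, so no test between groups was made and no p-value is given. All intervals are 95% intervals that cover counting error only, and do not cover the spread between animals. The filtered cells of the 3 libraries had median depths of 5959 to 8320 UMIs. Pairs of libraries shared 8 to 51 cell barcodes, and no member's barcode was shared. Gsdmd itself stood at 36.8 counts per 1000000 UMIs (CPM) over the filtered cells of dHep_IR, at 7.26 CPM in FL_IR and at 36.2 CPM in FL_control, so the library with the low value was one labelled floxed and the library labelled as the deletion was level with FL_control. These sums run over all cell types, and reads at the end of a transcript can lie outside a deleted part, so they do not check the hepatocyte deletion. Free RNA was not removed from the counts.

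The Siglech threshold fell into a gap between cells with few Siglech UMIs and cells with many. Among FL_control cells with none of the 4 lineage genes, 2997 had 0 Siglech UMIs, 27 had 1 and 1 had 2. Just inside the threshold, 3 members had 3 UMIs and 1 had 4, while 11 had 5 to 9, 39 had 10 to 19 and 60 had 20 or more. The member with the lowest Siglech count had 3, the median member 20 and the highest 51. A list of 26 further pDC identity genes was used to look at the cells on both sides. The cell with 2 Siglech UMIs, which had 709 UMIs in all, held 6 of the 26 genes, and the 27 cells with 1 UMI held a median of 4. The 3 members with 3 UMIs held 14 to 16, and the members with 20 or more a median of 23. The member with 4 Siglech UMIs stood apart with 9 of the 26 genes: it had 48 UMIs of Bst2 and 9 of Tcf4 but 0 of Irf8, Ccr9, Cox6a2 and Klk1. Over all 114 members the count ran from 9 to 25 with a median of 22.

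**Figure D1:**
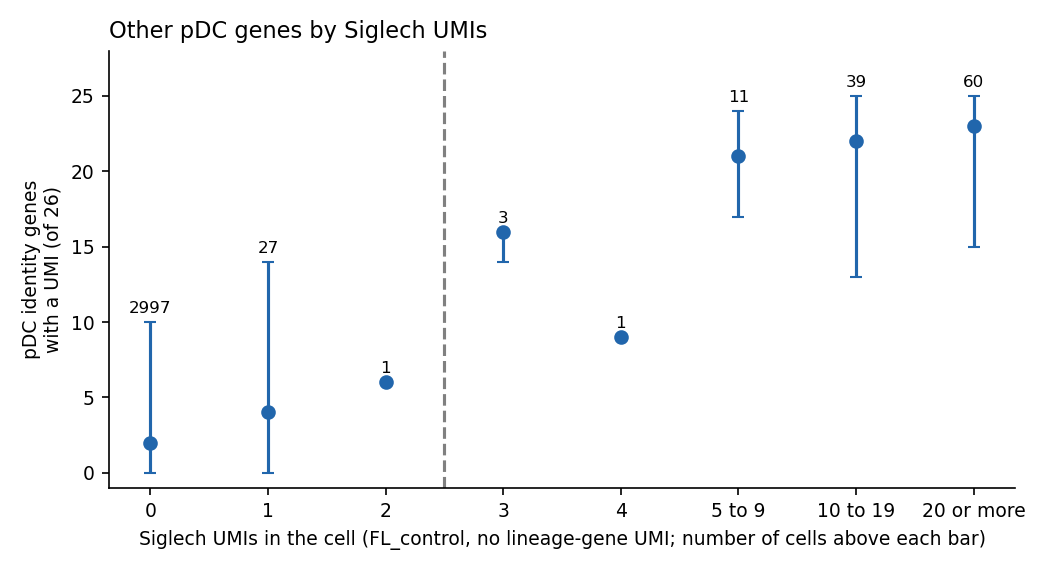
Number of the 26 pDC identity genes with at least 1 UMI (vertical axis) in FL_control cells without lineage-gene UMIs, grouped by their Siglech UMIs (horizontal axis); points are medians, bars run from the lowest to the highest cell, numbers give the cells, and the dashed line is the rule's threshold of 3. The median stood at 2 genes for cells with 0 Siglech UMIs and at 23 genes for cells with 20 or more.

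The lineage exclusions removed a further set of cells that also held the leading genes. In FL_control, 146 filtered cells had 3 or more Siglech UMIs, and 32 of them (21.9%) were excluded, 26 for Clec4f or Vsig4, 7 for Cd79a and 2 for Cd3e. In 19 of the 32 the exclusion rested on 1 lineage UMI in all. Their median Siglech count was 27.5 UMIs. Summed, the excluded cells held 1164 CPM of Ccr9, 899 CPM of Cox6a2 and 1673 CPM of Tcf4, against 1403, 1291 and 1909 CPM in the members. They also held 331 CPM of C1qa, a Kupffer cell gene, against 13.3 CPM in the members, although 5 of the 32 had a C1qa UMI, against 14 of the 114 members. These cells are left out of the profile described here.

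The members made up 0.0397% of the filtered cells of dHep_IR (exact binomial interval 0.00819% to 0.116%), 0 of 6780 in FL_IR (0.0442% at a floor of 3 cells, with an exact upper limit of 0.0544%), and 1.72% in FL_control (1.42% to 2.07%). The share was 43.4-fold lower in dHep_IR than in FL_control (exact conditional interval 14.5 to 213). With the floor of 3 cells in place of 0, it was 38.9-fold lower in FL_IR than in FL_control. The exact lower limit of that fold was 31.2. Because the rule was proposed with this pattern known, these shares are a description. In FL_IR no Siglech UMI was seen in any filtered cell, nor any of Klk1. In dHep_IR 61 Siglech UMIs were seen, 58 of them in the 3 members. Neutrophils took a larger part of the irradiated libraries, with 2152 gated neutrophils in dHep_IR, 2360 in FL_IR and 380 in FL_control. Over gated immune cells without neutrophils the members' share was 0.238% in dHep_IR, 0 of 676 in FL_IR and 4.23% in FL_control. For FL_IR the floor was 0.444% and the exact upper limit 0.544%. On that denominator the share was 17.8-fold lower in dHep_IR than in FL_control (5.94 to 87.6). In FL_IR it was 9.53-fold lower at the floor, with an exact lower limit of 7.63-fold.

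A gate that does not use Siglech gave few further cells. It asked for at least 3 of 11 other pDC genes, among them Ccr9, Cox6a2 and Klk1, with the same lineage exclusions. It found 7 cells in dHep_IR, 2 in FL_IR and 126 in FL_control, of which 3, 0 and 112 were members. The 4 further cells of dHep_IR and the 2 of FL_IR had 0 UMIs of Siglech, Klk1 and Cox6a2. Of the 14 further cells of FL_control, 10 had 0 Siglech UMIs and 5 held UMIs of Epcam, an adhesion gene of bile duct cells that 22 of the 114 members held as well. For comparison, conventional dendritic cells numbered 56 in dHep_IR, 4 in FL_IR and 36 in FL_control, and B cells 10, 19 and 1229. The conventional dendritic cell share was 0.742% in dHep_IR, 0.0590% in FL_IR and 0.544% in FL_control. The B cell share was 0.132% in dHep_IR, 0.280% in FL_IR and 18.6% in FL_control, 140-fold lower in dHep_IR and 66.3-fold lower in FL_IR than in FL_control. The library is a sample of recovered cells, and a loss of cells in the liver and a loss during preparation cannot be told apart.

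**Figure D2:**
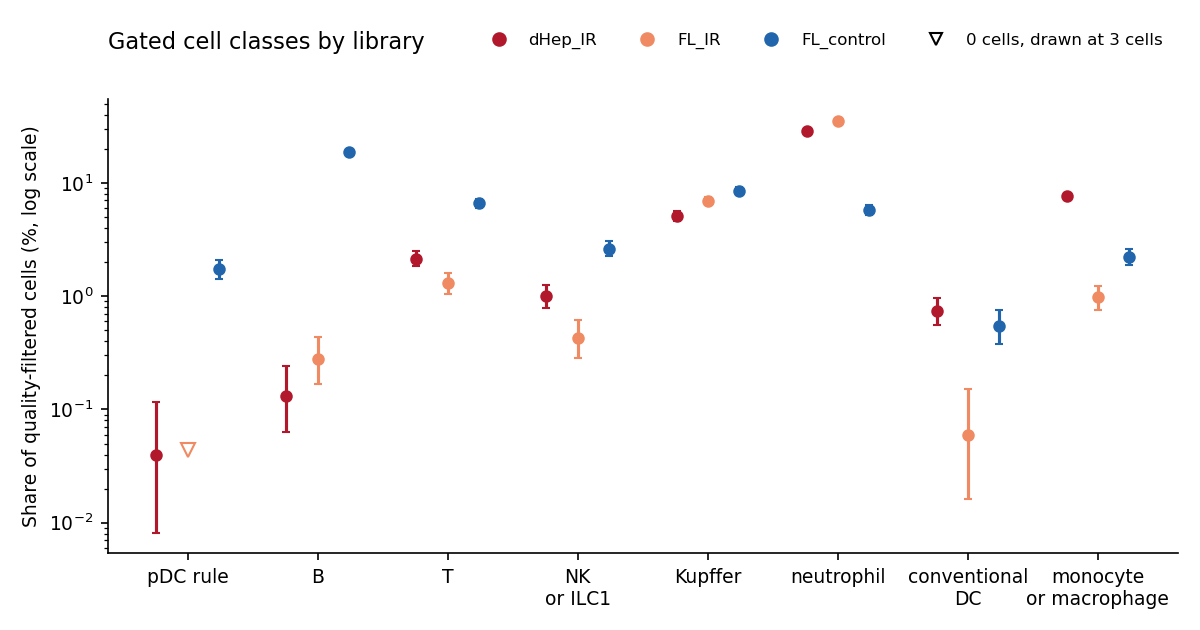
Share of filtered cells (vertical axis, per cent, log scale) in each gated class for the libraries dHep_IR, FL_IR and FL_control; bars are 95% exact binomial intervals for counting error, and the open triangle is the FL_IR share of pDC-rule cells, 0 cells drawn at the floor of 3. The pDC-rule point lay at 0.0397% in dHep_IR and 1.72% in FL_control.

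The profile of the members was read in FL_control, where the 114 cells held 1054344 UMIs, with 1157 to 15001 UMIs and a median of 9304 in a cell. They were set against 2961 other immune cells of the same library with 19788013 UMIs. Those were gated as 1229 B, 437 T, 174 natural killer (NK) or ILC1, 559 Kupffer, 380 neutrophil, 36 conventional dendritic, and 146 monocyte or macrophage cells. B and Kupffer cells gave 29.0% and 30.7% of the comparison's UMIs. Among these 7 classes, each was highest in all 3 of 3 further marker genes that its gate did not use, which makes 21 of 21. The members were left out of this ranking, and Ly6c2 was higher in them (2424 CPM) than in monocytes or macrophages (676 CPM). Over the 12603 genes with at least 20 UMIs in both sums together, 10.6% were at least 2-fold higher in the members and 27.2% at least 2-fold lower, which makes 37.8% either way (the lower share was 18.9% when genes at 0 UMIs were set to the floor of 3). The median log2 ratio over all these genes was -0.14 (-0.02 at the floor). A gene was at least 2-fold above every one of the 7 other classes in 2.93% of cases. These percentages are the background for the counts below.

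The label held for both other given markers. Bst2 was present in 114 of 114 members, with 5 UMIs in the lowest, 45 in the median and 70 in the highest member. Its level was 4905 CPM in the members and 367 CPM in the other immune cells, a ratio of 13.4 (12.9 to 13.9), and 736 CPM in Kupffer cells, the next immune class. Endothelial cells, which are not immune cells and were not in the comparison, had 1314 CPM. Tcf4 was present in 114 of 114 members too, with 1, 16 and 40 UMIs in the lowest, median and highest member. It stood at 1909 CPM in the members and 135 CPM in the other immune cells, a ratio of 14.2 (13.4 to 15.01), with 246 CPM in B cells and 714 CPM in endothelial cells. Of the 26 identity genes, 25 had enough UMIs, and 25 of 25 were at least 2-fold higher, 24 of them above every other class, with a median log2 ratio of 5.01. The list was drawn up with earlier results of these data known. Ptcra, the pre-T-cell receptor alpha chain, is the gene that had too few counts, with 1 UMI in 1 member.

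The 15 leading named genes were ranked, leaving out mitochondrial, ribosomal, haemoglobin and antigen receptor genes, unnamed gene models and the genes of the rule, by their ratio to the next immune class, a ratio that ranged from 24.2-fold to 1098-fold. Klk1, a tissue kallikrein protease at chr7:44225360-44229618 (GENCODE, GRCm38, plus strand), was first among these: 96 of 114 members held it, with 0 UMIs in the lowest, 7 in the median and 72 in the highest member. The unnamed model Gm21762, an identity gene left out of the ranking, had 881 UMIs in 107 members and 3 UMIs in the other immune cells. The level of Klk1 was 1040 CPM in the members and 0.404 CPM (8 UMIs) in the other immune cells. The close paralog Klk1b27 had 217 CPM against 0.657 CPM. Reads that fit both paralogs are uncertain in both counts. Cox6a2, the muscle form of a cytochrome c oxidase subunit, lies at chr7:128205435-128206387 (minus strand) and was found in 99 of 114 members with 0, 11 and 47 UMIs in the lowest, median and highest. It had 1291 CPM in the members and 1.01 CPM in the other immune cells. Ccr9, the receptor of the gut and thymus chemokine Ccl25, was found in 108 members with 0, 12 and 52 UMIs, and had 1403 CPM against 5.46 CPM. T cells, at 26.7 CPM, were the next class for Ccr9.

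Among the other leading genes several are best known from muscle. Pgam2, the muscle form of the glycolytic enzyme phosphoglycerate mutase, had 162 UMIs in 53 members and 1 UMI in the other immune cells. Sh3bgr had 141 UMIs in 59 members and 1 UMI in the others. Atp2a1, the calcium pump of fast skeletal muscle, had 132 CPM in 81 members against 0.303 CPM. Dntt, the terminal transferase that adds bases to antigen receptor joints in developing lymphocytes, was found in 60 members at 129 CPM, against 0.202 CPM. Cd209d, a lectin of the DC-SIGN family, was found in 60 members at 231 CPM, against 0.202 CPM. Lrp8, a receptor for reelin, had 171 CPM against 1.06 CPM, Lefty1, a secreted inhibitor of Nodal, 144 CPM against 2.17 CPM, and Paqr5, a membrane progestin receptor, 177 CPM against 1.42 CPM. Smim5, Pdzd4 and Ccdc162 complete the set, at 433, 98.6 and 101 CPM in the members and 1.21 CPM or less in the other immune cells.

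Detection in cells that should lack these genes was low. In the 2267 endothelial cells, whose median depth of 8481 UMIs was close to the members' 9304, Klk1 was seen in 0.441% of cells, Cox6a2 in 0.265% and Ccr9 in 0.441%. Pgam2 was seen in 0% of them and Dntt in 0.132%.

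The promoters of Siglech, Ccr9, Klk1 and Pgam2 are shown because these genes were among those highest in the members and TCF4 binds E-box motifs. The sequences are RefSeq's for GRCm38.p6, from 250 bases before to 50 after an annotated start, on the gene's strand. They lie at chr7:55767934-55768233 (plus strand), chr9:123766961-123767260 (plus), chr7:44225110-44225409 (plus) and chr11:5803747-5804046 (minus). Capitals mark the E-boxes CAGCTG and CAGGTG and the Runt-type motif TGTGGT on either strand, so that CAGGTG can read CACCTG and TGTGGT can read ACCACA. The marked motifs do not overlap. Each sequence shown holds at least 1 of these E-boxes. The matching sequences of Cd209d, Dntt and Pdzd4, also in the leading set, hold neither E-box and are not shown.
Siglech: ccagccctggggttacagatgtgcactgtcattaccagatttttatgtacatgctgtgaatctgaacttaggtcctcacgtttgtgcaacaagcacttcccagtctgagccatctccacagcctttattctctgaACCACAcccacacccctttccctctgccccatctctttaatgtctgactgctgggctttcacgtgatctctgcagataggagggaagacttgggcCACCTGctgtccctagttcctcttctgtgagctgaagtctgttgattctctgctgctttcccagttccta
Ccr9: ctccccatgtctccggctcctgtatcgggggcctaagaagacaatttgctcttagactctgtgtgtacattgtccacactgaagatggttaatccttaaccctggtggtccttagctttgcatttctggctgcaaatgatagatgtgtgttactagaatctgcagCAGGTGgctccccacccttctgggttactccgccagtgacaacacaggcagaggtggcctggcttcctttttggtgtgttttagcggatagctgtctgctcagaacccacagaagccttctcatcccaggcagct
Klk1: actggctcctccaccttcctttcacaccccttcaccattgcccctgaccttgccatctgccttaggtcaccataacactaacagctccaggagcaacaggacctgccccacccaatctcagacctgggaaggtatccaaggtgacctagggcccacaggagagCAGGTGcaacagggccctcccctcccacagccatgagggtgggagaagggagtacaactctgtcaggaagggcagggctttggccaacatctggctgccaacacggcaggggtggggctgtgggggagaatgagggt
Pgam2: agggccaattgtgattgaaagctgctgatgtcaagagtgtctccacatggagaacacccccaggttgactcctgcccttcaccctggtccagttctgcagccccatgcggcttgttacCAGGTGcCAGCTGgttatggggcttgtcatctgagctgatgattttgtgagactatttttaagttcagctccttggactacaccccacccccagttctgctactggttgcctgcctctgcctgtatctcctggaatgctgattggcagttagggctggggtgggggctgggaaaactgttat

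RefSeq promoters were found for 11 of the 16 genes made up of Siglech and the leading set. CAGCTG or CAGGTG was present in 8 of these 11 genes, against 35.9% of 27025 genes in the table, and CAGGTG alone in 7 of 11 against 22.6%. TGTGGT was present in 2 of 11 against 18.9%. The PU.1-type motif GAGGAAGT was in 0 of 11, against 3.69% of genes, searched on both strands like the others. The genes were picked by their level in these cells and the windows are short, so the counts describe these letters and no binding was measured.

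**Figure D3:**
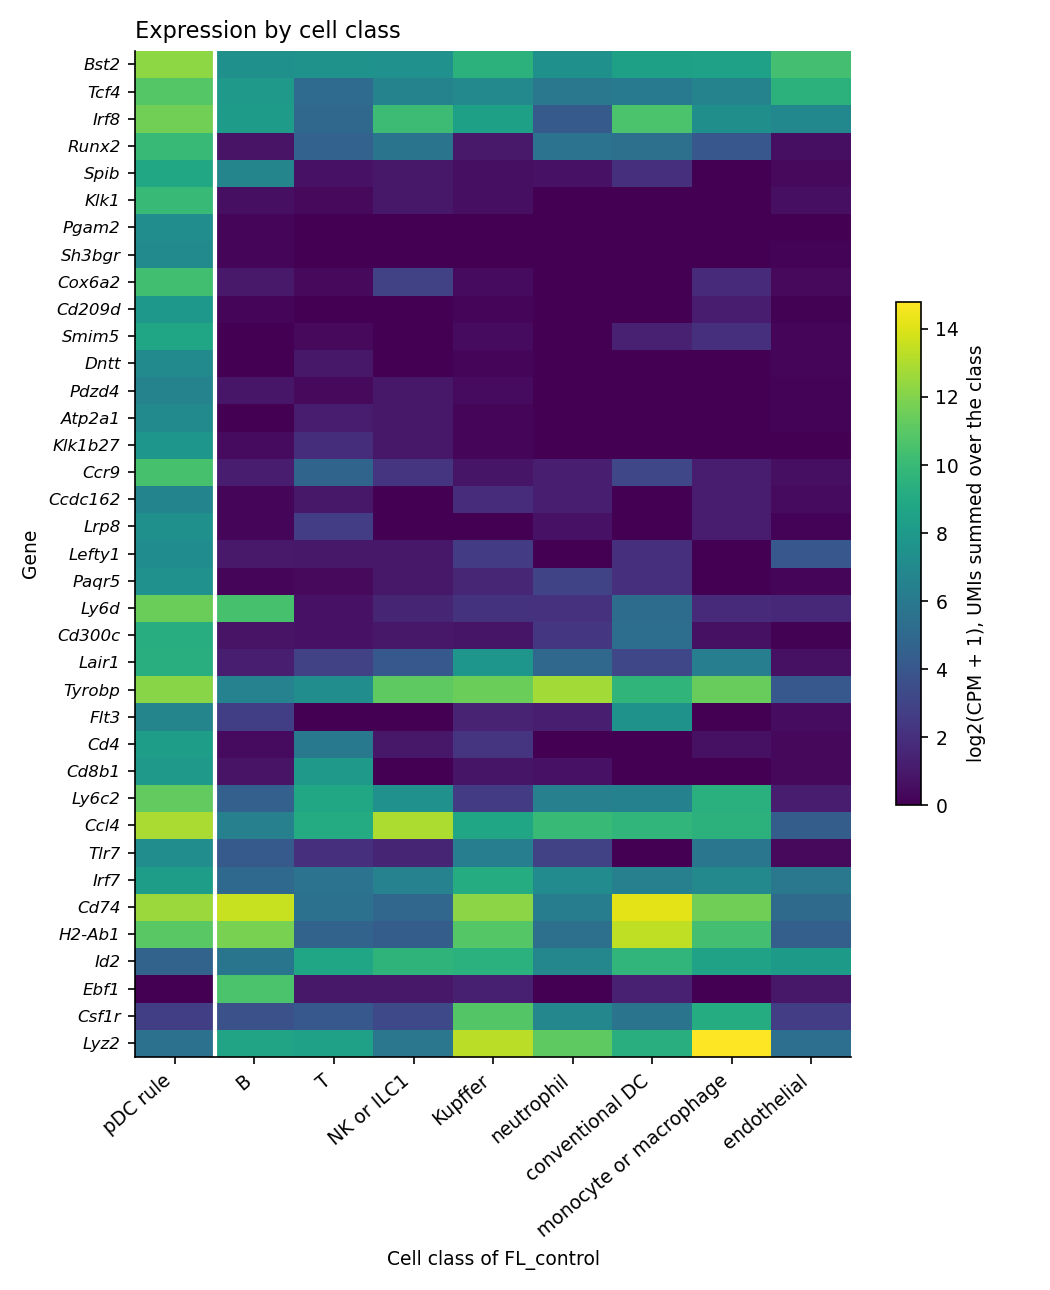
Expression of pDC identity genes, the leading genes and genes named in the text (rows) in the cell classes of FL_control (columns, pDC-rule cells first), as log2(CPM + 1) of the UMIs summed over each class. Klk1 reached 1040 CPM in the pDC-rule cells and at most 0.946 CPM in any other immune class, whereas Cd74 was higher in conventional dendritic cells and B cells.

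Transcription factors lay on both sides of the other immune cells. Of 30 tested, 9 were at least 2-fold higher and 10 lower, with a median log2 ratio of 0.04. Runx2, which takes part in pDC development and exit from bone marrow, had 0 UMIs in the lowest, 9 in the median and 23 in the highest member. It stood at 996 CPM in the members and 13.2 CPM in the other immune cells, a ratio of 75.2 (65.6 to 86.5). Spib, an Ets factor of pDCs and B cells, had 448 CPM against 31.0 CPM, with 106 CPM in B cells. Bcl11a, an upstream factor of Tcf4, had 491 CPM against 48.4 CPM. Irf8, needed in dendritic cell development, had 0, 28 and 66 UMIs in the lowest, median and highest member and 3171 CPM against 316 CPM, with 1521 CPM in conventional dendritic cells. Xbp1, the factor of the secretory and unfolded protein response, had 425 CPM against 101 CPM. On the low side, Id2, which binds and blocks E proteins such as TCF4, had 25.6 CPM in the members and 404 CPM in the other immune cells, a log2 ratio of -3.95. Id3, of the same family, had 138 CPM against 390 CPM. The B cell factors Pax5 and Ebf1 had 0 UMIs in the members, against 114 and 449 CPM in the other immune cells. Batf3 and Zbtb46, factors of conventional dendritic cells, had 4 and 3 UMIs in the members and 205 and 42.3 CPM in that class. Zeb2, which represses Id2 in dendritic cells, had 395 CPM against 290 CPM, short of the 2-fold mark.

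The receptors and helpers for nucleic acids in endosomes were mostly near the other immune cells. Of 27 tested, 3 were at least 2-fold higher and 9 lower, with a median log2 ratio of -0.11. Tlr7, the endosomal receptor for single-stranded RNA, had 149 CPM in the members and 35.4 CPM in the other immune cells, a ratio of 4.21 (3.52 to 5.01), and the next class was Kupffer cells at 80.1 CPM. Slc15a4, a lysosomal transporter needed for pDC interferon, had 143 CPM against 43.6 CPM, a ratio of 3.29 (2.75 to 3.91). Ctsl, a lysosomal protease, had 1810 CPM against 269 CPM. Unc93b1, which carries these receptors to endosomes, had 684 CPM against 400 CPM. Irf7, the factor that drives interferon alpha genes, had 296 CPM against 224 CPM, a log2 ratio of 0.41, and Kupffer cells held more, at 579 CPM. Tlr9, the receptor for CpG DNA, had 3 UMIs in the members and too few over both sums for a ratio. Tlr8, Tlr13 and Tlr3 had 0, 1 and 4 UMIs in the members.

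Interferon itself was close to absent from the libraries. Over 14 interferon alpha genes, 0 UMIs fell in the filtered cells of dHep_IR and of FL_IR, and 3 in those of FL_control, with 0 in the members. The members held 1 UMI of all 20 type I and III interferon genes listed, an Ifnb1 UMI. Of 12 cytokine and chemokine genes with enough UMIs, 2 were at least 2-fold higher and 8 lower, with a median log2 ratio of -3.87. With no minimum of UMIs, 19 genes entered and the median was 0.0566. Ccl4, a chemokine that draws T and NK cells, had 7607 CPM in the members and 843 CPM in the other immune cells, with 8161 CPM in NK or ILC1 cells. It was found in 107 of 114 members and in 7.90% of endothelial cells, and ranged among members from 0 over a median of 56.5 to 315 UMIs. Its partner Ccl3 behaved differently, with 338 CPM against 325 CPM and UMIs in 43 members. Il12a, a subunit of interleukin 12, had 29.4 CPM in 16 members against 4.04 CPM. Tnf, an inflammatory cytokine, had 67.3 CPM against 36.5 CPM. Ccl5 and Ifng, products of NK and T cells, had 5 and 0 UMIs in the members, and Il6 had 1.

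Most genes that answer interferon did not follow Bst2, whereas both genes of the type I interferon receptor were higher in the members. Ifnar1 and Ifnar2, the 2 chains of the type I interferon receptor, had 224 and 353 CPM in the members against 65.9 and 145 CPM in the other immune cells, ratios of 3.40 (2.94 to 3.91) and 2.44 (2.18 to 2.72). Ifngr1, a chain of the interferon gamma receptor, had 23.7 CPM against 297 CPM, 12.5-fold lower (8.47 to 19.4). Of 15 genes of this receptor and signalling list, 2 were at least 2-fold higher and 5 lower, with a median log2 ratio of 0.02. Of 35 interferon-stimulated genes, 2 were at least 2-fold higher, Bst2 and Ifi44, and 22 lower, with a median log2 ratio of -1.68 (-1.65 at the floor). Isg15 had 57.9 CPM in the members and 190 CPM in the other immune cells, Rsad2 17.1 CPM against 115 CPM and Ifit3 1.90 CPM (2 UMIs) against 59.2 CPM. Oas2, Oas1g, Ifit3b and Ifit1bl1 had 0 UMIs in the members. Trim30a and Ifi27l2a stood at 315 and 1255 CPM, against 163 and 1140 CPM. The other immune class with the highest level was the Kupffer cells for 20 of the 35 genes and the neutrophils for 11.

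Antigen presentation genes sat at the mean level of the other immune cells and well below conventional dendritic cells. The gate of conventional dendritic cells asked for at least 20 H2-Ab1 UMIs, so their high class II level was partly set by the gate. Of 20 tested, 0 were at least 2-fold higher and 4 lower, with a median log2 ratio of 0.08. Cd74, the invariant chain of MHC class II, had 0, 56.5 and 203 UMIs in the lowest, median and highest member. Its level was 5995 CPM in the members, against 5823 CPM in the other immune cells, and 18345 CPM in conventional dendritic cells and 12044 CPM in B cells. H2-Ab1, a class II chain, had 2076 CPM in the members and 2086 CPM in the other immune cells. T cells and neutrophils, which should carry little of it, had 47.5 and 77.2 CPM of Cd74. H2-Ob, which restrains peptide loading in B cells, had 9.48 CPM in the members and 186 CPM in the other immune cells. Ciita, the master regulator of class II, had 29.4 CPM in the members and 239 CPM in conventional dendritic cells. Ligands for T cell costimulation were low: Cd86 and Cd80 had 8 and 1 UMIs in the members, and Cd83 had 37.9 CPM against 394 CPM in the other immune cells. Of 15 costimulation and checkpoint genes, 3 were at least 2-fold higher and 9 lower, with a median log2 ratio of -1.61. The 3 higher ones were Lag3, an inhibitory receptor for class II, at 229 CPM against 2.02 CPM, the inhibitory receptor Cd200r1 at 46.5 CPM against 12.9 CPM, and the anti-phagocytic signal Cd47 at 1126 CPM against 516 CPM.

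Among receptors for homing and growth, members were high in some and near 0 in others. Besides Ccr9, homing genes at least 2-fold higher included Cxcr3 (58.8 CPM in the members and 16.5 CPM in the other immune cells), Selplg (619 and 207 CPM), Itgax (60.7 and 23.6 CPM) and Itgb7 (216 and 98.6 CPM). Selplg encodes a selectin ligand used for rolling on vessel walls. In all, 6 of 21 homing genes were higher and 8 lower, with a median log2 ratio of -0.11. S1pr1, which guides exit from tissues, had 1 UMI in the members and 124 CPM in the other immune cells, Ccr7, which guides entry to lymph nodes, 7 UMIs and 304 CPM, and Cxcr5 and Cxcr6 0 UMIs each. Among growth factor receptors, 6 of 22 were higher and 11 lower, with a median log2 ratio of -0.98. Flt3, the receptor for the main dendritic cell growth factor, had 104 CPM against 8.24 CPM, and 183 CPM in conventional dendritic cells, whose gate used it. Csf2rb2 and Csf2rb, close paralogs that share signalling for IL-3 and GM-CSF, had 162 and 149 CPM against 14.4 and 68.5 CPM. Tnfrsf13b, a receptor for BAFF and APRIL, had 206 CPM against 31.5 CPM, and Tgfbr1 159 CPM against 35.4 CPM. Csf1r, the macrophage growth factor receptor, had 5.69 CPM against 616 CPM.

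A list of signalling adaptors, lectins, and activating and inhibitory receptors gave 10 of 28 genes at least 2-fold higher and 10 lower. Its median log2 ratio was 0.25. Tyrobp, which encodes DAP12, had 4495 CPM in the members and 1796 CPM in the other immune cells, with 2, 42.5 and 79 UMIs in the lowest, median and highest member. Neutrophils held more, at 6861 CPM. Cd300c, an activating receptor of myeloid cells, had 585 CPM against 2.22 CPM, a ratio of 263 (194 to 366), and Klra17, of the Ly49 family, 157 CPM against 3.18 CPM. Ptprs, a receptor phosphatase that dampens pDC activation, had 326 CPM against 10.1 CPM, Pacsin1, an endocytic adaptor, 207 CPM against 7.13 CPM, and the collagen receptor Lair1 638 CPM against 78.0 CPM. The paired receptors Pilra and Pilrb1 and the sialic acid receptors Siglec1 and Siglece, which are prominent on macrophages and neutrophils, had 16, 1, 0 and 2 UMIs in the members.

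The secretory pathway had the highest median of the lists in the plot of list medians after the identity genes. Of 34 tested, 11 were at least 2-fold higher and 1 lower, with a median log2 ratio of 0.74 beside -0.14 over all genes. The lower gene was Bcl2l1, an apoptosis inhibitor that the list takes in. Only 3 of the 34 were at least 2-fold above every other class, beside 2.93% of all genes. Summed over the list, the members had 10810.5 CPM, Kupffer cells 8538, conventional dendritic cells 7758 and monocytes or macrophages 7755 CPM. B, T, NK or ILC1 cells and neutrophils had 4590, 4586, 5990 and 3410 CPM. Herpud1, of the endoplasmic reticulum degradation machinery, had 654 CPM in the members and 119 CPM in the other immune cells, a ratio of 5.48 (5.03 to 5.97). Sec61b and Sec61g, subunits of the translocation channel, had 1153 and 932 CPM against 313 and 377 CPM. Sec11c, of the signal peptidase, had 496 CPM against 180 CPM, and Manf 433 CPM against 174 CPM. The chaperones Calr and Hspa5 were near 1, with ratios of 0.956 (0.875 to 1.04) and 1.09 (1.01 to 1.17). Of 8 plasma cell markers, 4 had enough UMIs, of which 2 were at least 2-fold higher, Xbp1 and Sdc1, and 1 lower, Prdm1. Jchain had 0 UMIs and Mzb1 2 UMIs in the members.

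Among genes of lymphoid cells, some were higher than in the other immune cells and more were lower. Several B cell genes were at 0, while Ighm and Ly6d were not. Of 19 tested, 7 were at least 2-fold higher and 11 lower, with a median log2 ratio of -3.40 (-2.72 with genes at 0 UMIs at the floor). With no minimum of UMIs, 24 genes entered and the median was 0.99. Cd4, the T helper co-receptor that mouse pDCs are known to carry in part, had 0, 2 and 16 UMIs in the lowest, median and highest member. It stood at 305 CPM in the members and 11.1 CPM in the other immune cells, with 62.0 CPM in T cells. Cd8b1 had 257 CPM against 40.8 CPM, beside 256 CPM in T cells, and Cd8a 63.6 CPM against 25.4 CPM. Cd7 had 343 CPM against 61.1 CPM, Il7r, the interleukin 7 receptor, 208 CPM against 90.7 CPM, and Ly6d 2828 CPM against 418 CPM. Cd5, Ms4a1, Vpreb3 and Pou2af1 had 0 UMIs in the members, and Rag1 had a UMI in 1 of 114 members. In a separate list of T cell markers, 10 of 10 were at least 2-fold lower than in the other immune cells. Ighm, the heavy chain of IgM, had 1475 CPM and was found in 114 of 114 members, against 3288 CPM in B cells and 193 CPM in T cells. An Ighm UMI was held by 60.0% of T cells, 9.30% of Kupffer cells and 5.25% of endothelial cells. Cd79b, the other receptor chain of B cells, had 46.5 CPM in the members and 884 CPM in B cells. How far free B cell RNA enters the Ighm value was not tested.

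Genes of killing, death and division were mostly lower than in the other immune cells or near them. Of 16 cytotoxic genes, 1 was at least 2-fold higher, Klrd1, at 154 CPM in the members and 73.1 CPM in the other immune cells, and 13 were lower, with a median log2 ratio of -3.52 (-3.07 at the floor, with 12 lower). Gzmb, which human pDCs express, had 1 UMI in the members. Of 35 apoptosis regulators, 1 was higher and 12 lower, with a median log2 ratio of -0.45. The higher one was Pmaip1, the death-promoting BH3 protein NOXA, at 339 CPM against 129 CPM. The survival genes Bcl2 and Bcl2a1b had 14.2 and 1.90 CPM against 108 and 184 CPM, and Mcl1 405 CPM against 787 CPM. Of 14 pyroptosis genes, 1 was higher and 9 lower, with a median log2 ratio of -2.50 (-1.20 at the floor, with 7 lower). The higher one was Pycard, the inflammasome adaptor ASC, at 266 CPM against 129 CPM. Gsdmd had 39 UMIs in 33 members, 37.0 CPM against 46.7 CPM, a ratio of 0.792 (0.560 to 1.09). Of 29 cell cycle genes, 0 were higher and 13 lower, with a median log2 ratio of -0.83. A single member held 195 cell cycle UMIs, another 10, and 107 held 1 to 9. Of 16 stress genes that cell dissociation is known to induce, 0 were higher and 9 lower, with a median log2 ratio of -1.15.

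**Figure D4:**
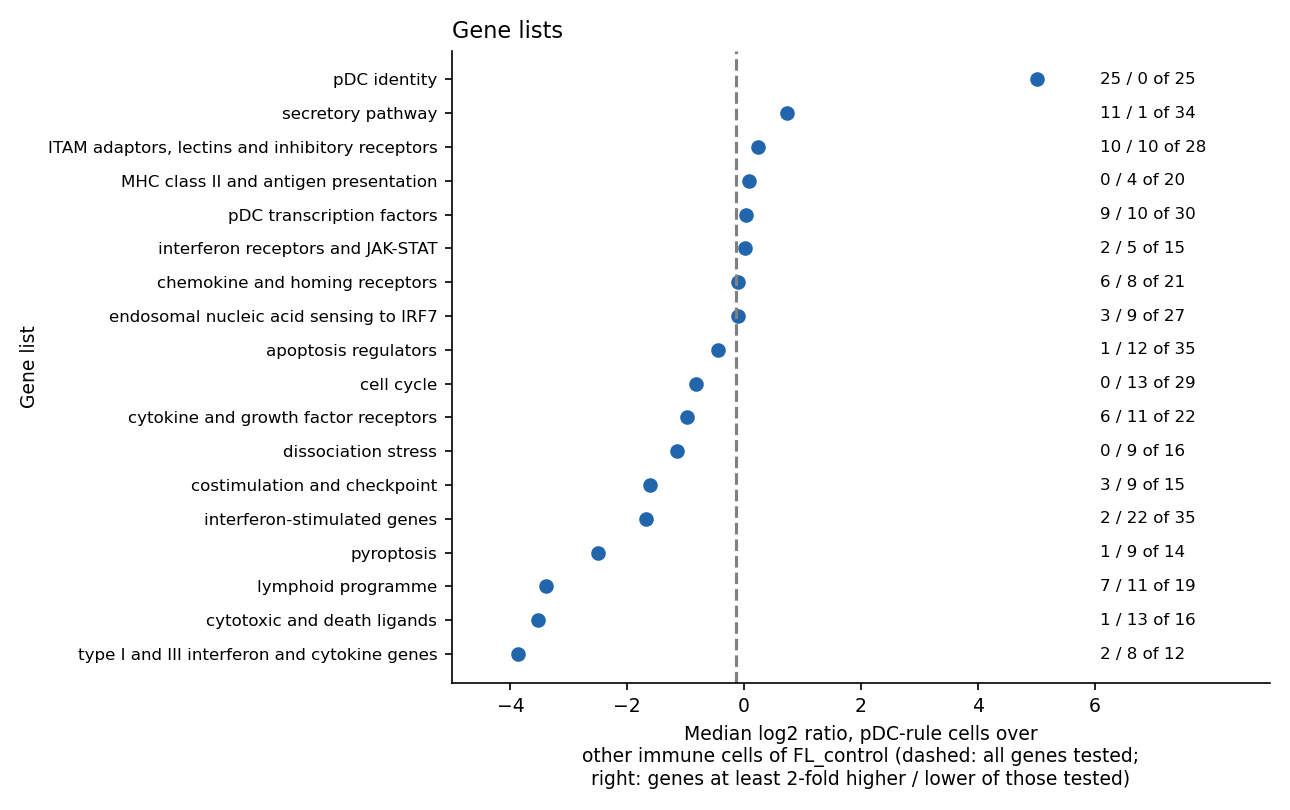
Median log2 ratio of pDC-rule cells over the other immune cells of FL_control (horizontal axis) for each gene list (vertical axis); the dashed line is the median over all 12603 genes tested, -0.14, and the numbers at the right give the genes at least 2-fold higher and lower of those tested. The identity list stood at 5.01, the secretory pathway at 0.74 and the interferon and cytokine list at -3.87.

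Markers of Kupffer, T, NK or ILC1, neutrophil and endothelial cells were scarce in the members, at 0.181% to 1.57% of the sum in their own class. Markers of conventional dendritic cells and B cells were less scarce, at 30.1% and 23.5% of that sum. Apart from the T and B cell lists, the lists of the gated classes hold genes that the class's own gate used. The gate thus raised those own-class sums. In neutrophils, for example, S100a8 and S100a9 gave 41387.5 and 61460.5 CPM. The 10 Kupffer markers summed to 66.4 CPM in the members and 36588 CPM in Kupffer cells, with 3 of 10 at 0, although 2 of the 10 were excluded by the rule. The 10 T cell markers summed to 40.8 CPM against 5890 CPM in T cells, and the 10 NK or ILC1 markers to 158 CPM against 12836 CPM in that class, with 5 of 10 at 0. The 10 B cell markers summed to 1817 CPM, of which Ighm made up 1475 CPM, against 7718 CPM in B cells. The 10 neutrophil markers summed to 1597 CPM against 125109 CPM in neutrophils, and S100a8 and S100a9 made up 575 and 777 CPM of it. The endothelial markers summed to 322 CPM against 20448 CPM, the hepatocyte markers to 296 CPM and the haemoglobin genes to 34.1 CPM, while the plasma cell markers summed to 501 CPM, of which Xbp1 made up 425 CPM. The 12 monocyte markers summed to 2604 CPM, of which Ly6c2, an antigen that mouse pDCs share with monocytes, made up 2424 CPM, against 676 CPM of Ly6c2 in monocytes or macrophages. Of 12 conventional dendritic cell markers, 5 were at least 2-fold higher than in the other immune cells and 5 lower, with a median log2 ratio of -0.74, against 10.6% and 27.2% of all genes. Clec9a and Cd209a, for example, stood at 109 and 124 CPM in the members and 247 and 142 CPM in conventional dendritic cells. Cd209a and Cd209d belong to 1 gene family, and reads that fit both are uncertain. Xcr1 had 0 UMIs in the members. Among genes at 200 CPM or more in at least 4 of the 7 classes, the members were lowest in Lyz2, the lysozyme of myeloid cells, with 47.4 CPM against 5687 CPM, 120-fold lower (91.0 to 162). Maf, a macrophage factor, was 66.6-fold lower (32.3 to 166), Apoe 62.3-fold lower (53.2 to 73.5), and Dusp2 27.7-fold lower (14.0 to 64.2). The other genes of that set, Cd9, Id2, Il1b, Ehd3, Ifngr1 and Selenop, were 11.7-fold to 21.5-fold lower. The Il1b log2 ratio of -3.93 was -7.56 without the 2 members rich in S100a8 and S100a9 and -7.57 without doublets marked by Scrublet, and that of Ehd3 was -2.42 without those doublets against -3.74 with them.

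The 114 members were not uniform. By the ratio of variance to mean of counts at equal depth, the highest genes were S100a9, S100a8 and Retnlg of neutrophils. These lay in few cells: 88 members had 0 UMIs of S100a8 and S100a9, 24 had 1 or 2, and 2 had 444 and 955. Those 2 members held 98.2% of these UMIs, while S100a9 was seen in 13.2% of members and 15.6% of endothelial cells. Without the 2 cells 1359 genes were at least 2-fold higher and 3454 lower, against 1338 and 3428 with them, a setting added after the data were seen. Ccl4, Malat1, Jun, Stmn1, G0s2, Hspa1a and Crip1 followed. For 3 of these, 1 member held most of the UMIs: 54 of 62 for G0s2, 53 of 67 for Stmn1 and 37 of 60 for Hspa1a. By contrast, Ccl4, Malat1, Jun and Crip1 were found in 107, 114, 112 and 98 members. Malat1, a nuclear RNA, ranged from 7 over a median of 161 to 406 UMIs.

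Several identity genes were absent from more cells than an even spread at each cell's depth would leave. Klk1 was at 0 in 18 members where an even spread gives 0.451 cells, Cox6a2 in 15 against 0.291, and Ccr9 in 6 against 0.244. Cd209d was at 0 in 54 against 15.3. Outside the identity genes, Cd8b1 was at 0 in 54 against 12.5 and Cd4 in 31 against 8.68. H2-Ab1 was at 0 in 8 members against 0.0972, Ifi27l2a in 19 against 0.308, and Ccl3 in 71 against 6.88. By contrast Atp2a1, at 0 in 33 against 35.0, and Pdzd4, in 47 against 46.8, were spread as evenly as counting gives. Klk1 and Cox6a2 were both present in 84 members, Klk1 alone in 12, Cox6a2 alone in 15 and neither in 3. Cd4 and Cd8b1 were both present in 52, Cd4 alone in 31 and Cd8b1 alone in 8.

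Among 19 genes picked after their values were seen, 15 of 171 pairs had a Spearman correlation of 0.40 or more over the 114 cells, computed on counts per UMI. The cells share a library and the values share each cell's depth, so these are descriptions. Cd74 and H2-Ab1 were highest at 0.85, followed by Klk1 and Klk1b27, which may share reads, at 0.60, and Klk1 and Cd4 at 0.50. Klk1 and Cd4 each also ran with the class II genes, at 0.42 to 0.47. Siglech ran with Ctsl at 0.46 and with Cox6a2 at 0.42, and Cox6a2 with Dntt at 0.43. Over the 109 members with at least 5000 UMIs these pairs lay between 0.40 and 0.86.

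The 3 irradiated members, all in dHep_IR, had 4810, 3847 and 9731 UMIs and mitochondrial shares of 13.9%, 9.85% and 3.68%, against a median of 4.48% in FL_control members. They held 21, 15 and 21 of the 26 identity genes. Siglech had 14, 8 and 36 UMIs in them, and S100a8 plus S100a9 had 4, 3 and 10. Tcf4 had 10, 8 and 22 UMIs, which is 2079, 2080 and 2261 CPM, against a median of 1795 CPM (210 to 3812) over the FL_control members. Ccr9 had 7, 7 and 34 UMIs, or 1455, 1820 and 3494 CPM, against a median of 1269 CPM (0 to 5023). Klk1 had 9, 2 and 16 UMIs and Cox6a2 0, 0 and 9, so Cox6a2 was at 0 in 2 of them, as it was in 15 FL_control members. The 3 cells thus lay within the range of the FL_control members for these genes.

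Bst2 lay at the low end. The 3 cells had 13, 5 and 25 Bst2 UMIs, or 2703, 1300 and 2569 CPM, against 1954 CPM in the lowest, 4927 in the median and 8926 in the highest FL_control member, and 1 of 114 FL_control members was below the highest of the 3. Over the filtered cells that were not members Bst2 stood at 143 CPM in dHep_IR and 803 CPM in FL_control, so the level differed between the libraries outside the pDCs too. Summed over the 36 interferon-stimulated genes of the list, the 3 cells had 3119, 2859 and 2980 CPM, all below the lowest FL_control member at 3731 CPM. Without Bst2 and Irf7 they had 416, 1560 and 411 CPM, inside the FL_control range of 264 to 18512 CPM. Irf7 had 0 UMIs in all 3 cells, where the FL_control median was 137 CPM and 31 of 114 FL_control members were at 0 too. The exact Poisson interval of the 3 cells' summed Irf7 level reached 201 CPM, and the FL_control members' summed level was 296 CPM. That interval leaves out the spread between cells, so it does not show a difference. An even spread would leave 9.31 FL_control members at 0 for Irf7, fewer than the 31 seen. Over the filtered cells that were not members Irf7 stood at 33.8 CPM in dHep_IR and 134 CPM in FL_control. Tyrobp was also below the FL_control median in all 3, at 2703, 1560 and 1953 CPM against a median of 4524 CPM. Of the damage-response genes, Bax and Cdkn1a had 0 UMIs in all 3 and Mdm2 1 UMI in the cell with 9731 UMIs. Gsdmd had 0. For Bax and Gsdmd the exact Poisson interval reached 201 CPM, above the FL_control members' 147 and 37.0 CPM, so a difference was not detectable at this depth. The 3 cells come from 1 library, so these values are given with no test.

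**Figure D5:**
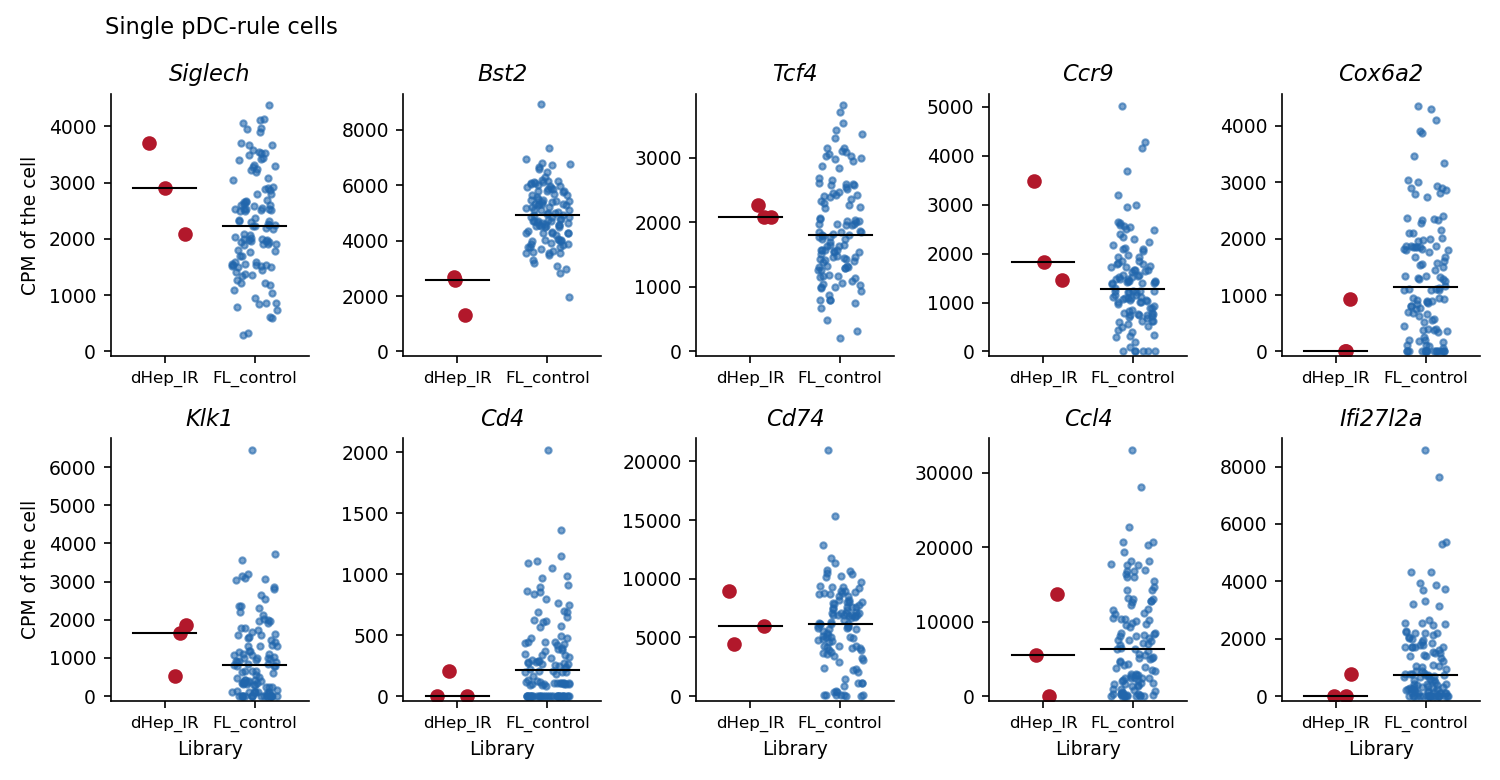
CPM of 10 genes in single pDC-rule cells (points) of dHep_IR (3 cells) and FL_control (114 cells); the line is the median of the cells shown. Bst2 lay at 1300 to 2703 CPM in the dHep_IR cells and at a median of 4927 CPM in FL_control, whereas Tcf4 and Ccr9 lay inside the FL_control range.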

How the data were processed

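Droplet 3' single-cell RNA profiles of mouse liver (10x Genomics Chromium, per the labels' protocols) were taken in 3 libraries, 1 per group. The deposited matrices hold raw UMI counts per gene and barcode, as the authors left them, with no normalization. The submitters' processing notes name CASAVA 1.8, Cell Ranger 6.1.1, Seurat 4.0.3 and the mm10 build; no source used here gives the annotation version. Gene positions come from GENCODE's annotation of GRCm38 and promoters from RefSeq's GRCm38.p6 table; motifs were searched on both strands.

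Filters, the rule and the class gates were applied to raw counts with python 3.11.15, numpy 2.4.6 and scipy 1.17.1. A barcode meeting more than 1 gate was left out of all classes (28 in FL_control). Gates asked for Cd79a of at least 3 UMIs (B), Cd3e (T), Ncr1 plus Klrb1c of at least 2 (NK or ILC1), Clec4f plus Vsig4 of at least 3 (Kupffer), Csf3r plus Cxcr2 of at least 2 with S100a8 plus S100a9 of at least 10 (neutrophil), Flt3 with H2-Ab1 of at least 20 (conventional dendritic), Csf1r of at least 2 without Flt3 (monocyte or macrophage) and Stab2, Clec4g plus Kdr of at least 5 without Ptprc (endothelial). Each gate also required fewer than 3 Siglech UMIs, and the immune gates required none of the other lineage genes of the rule. UMIs were summed per class and divided by the class total (CPM), and log2 ratios had a prior count of 0.5. Intervals were exact: Poisson for sums, Clopper-Pearson for shares, conditional for ratios. Classes at 0 were given a floor of 3 counts. The calculation was tested on simulated counts.

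Doublets were kept; Scrublet in scanpy 1.11.5 marked 3.85% of cells in dHep_IR, 3.47% in FL_IR and 2.42% in FL_control, among them 0 of the 3 members in dHep_IR and 2 of the 114 in FL_control, and their removal was an alternative. TMM factors (edgeR 4.0.16, R 4.3.3) were another. The genes named are the rule's and given markers, examples of the gene lists, the 15 leading genes, the 10 lowest and the 10 most variable. The 15 leading genes were those highest over the next immune class, among genes with at least 100 UMIs summed over the members. They also needed a UMI in at least 25% of members. Mitochondrial, ribosomal, haemoglobin, antigen receptor and rule genes and unnamed models were left out of the leading set. The members, lists and rules were chosen with earlier results of these data known. Some genes of the lists are counted in the list totals and are not reported here by name.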

Additional observations from a re-analysis of the deposited data

How the results depend on the processing

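No paired analysis was possible because each group is 1 library, and for the same reason no replicate could be left out. Of 33 alternative values of the members' shares, 29 moved by less than the counting interval; the FL_control share was 2.15% with Siglech of at least 1, 2.21% without lineage exclusions and 4.23% of immune cells without neutrophils, where dHep_IR had 0.238%. Over the alternatives the share was 20.5-fold to 67.5-fold lower in dHep_IR than in FL_control, and 17.8-fold lower over immune cells without neutrophils. With no UMI minimum 5069 genes were at least 2-fold higher in the members and 728 above every class, against 1338 and 369. The count of lower genes was 2285 with at least 100 UMIs and 2072 with a prior count of 2, against 3428, since fewer genes are tested or the ratios shrink. Of 216 alternative list medians 205 lay within 1.5 times of the reported one. With no minimum the interferon and cytokine list was at 0.0566, the lymphoid list at 0.99 and the costimulation list at -0.72, as genes with few or 0 UMIs then enter. With means of per-cell CPM the interferon and cytokine list was at -2.78 and the lymphoid list at -4.15. With the 7 classes weighted equally the lymphoid list was at -2.42 and the cytotoxic list at -4.43; against all other cells with Ptprc the lymphoid list was at -2.52. With a prior of 2 the interferon and cytokine list was at -3.03, the cytotoxic list at -2.89 and the pyroptosis list at -1.39. Of 468 values of 39 named genes 395 lay inside the counting interval, 72 lay outside it, and 1 reversed, Crip1, whose log2 ratio was 0.0292 with per-cell means and -0.30 otherwise. Against all other cells with Ptprc, which can include Siglech-high cells that the lineage genes exclude, all 15 leading genes had smaller log2 ratios, 4.79 to 6.52 (Klk1 5.99 against 11.24, Cox6a2 6.46 against 10.28). Without doublets S100a9 was at -8.55 against -2.67. TMM factors moved every log2 ratio by -0.02. A single UMI in the members equals 0.948 CPM, so genes below 2.85 CPM there cannot be told from 0.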
